A study of Mus musculus with 4 samples.

Results

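The 37 genes described here encode subunits and close regulators of Polycomb repressive complexes 1 and 2 (PRC1 and PRC2) in mouse embryonic stem cells. They were taken by gene symbol from a list of Polycomb subunits that was drawn up with earlier results of these data known. All 37 were found among the 55401 gene rows of the count table, and all 37 passed the low-count filter that left 13916 genes for testing.

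RNA-seq was carried out on mouse embryonic stem cells in which both copies of Zbtb21, a gene for a BTB zinc finger protein, end in an auxin-inducible degron fused with GFP, by which the cell's proteasome removes the tagged protein when IAA, an auxin, is added. All groups carried this tag and the plant auxin receptor OsTIR1, in clonal lines grown with LIF, the GSK3 inhibitor CHIR99021 and the MEK inhibitor PD0325901. The degron_24h group (2 libraries, called degron below) was induced with 1 µg/ml doxycycline for 24 h before 500 µM IAA was given over a further 24 h. The untreated group (2 libraries) received no IAA, and the labels do not say whether it received doxycycline. IAA went to the degron group alone, so loss of ZBTB21 and other effects of the treatment cannot be told apart. The labels do not say that the replicates came from separate cultures, so the p-values cover the variation among the 4 libraries, part or all of which may be technical.

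PRC2 places methyl groups on lysine 27 of histone H3, the mark H3K27me3, and PRC1 attaches ubiquitin to histone H2A. Canonical PRC1 contains CBX proteins that bind H3K27me3 and PHC proteins that link complexes together, whereas variant PRC1 contains RYBP or YAF2 and reaches chromatin by other routes. In embryonic stem cells both complexes sit at CpG-rich promoters of silent developmental genes, among them the Hox clusters.

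Library totals ranged from 8344408 to 10604451 counts. The chi-square per gene, which is about 1 where libraries differ by sampling noise alone, was 1.6 in the degron pair and 2.10 in the untreated pair, and 17.1 to 18.0 between groups. Zbtb21 mRNA had 1188 and 1115 counts in degron libraries, against 652 and 525 in untreated libraries, but protein, not mRNA, is what the degron removes, so these counts do not check the labels. Summed markers of embryonic stem cells (8 genes) were at 5621 and 5682 CPM (counts scaled to the TMM-adjusted library total) in degron libraries, against 5349 and 5560 CPM in untreated libraries, with Klf4, Esrrb and Tfcp2l1 called higher and Sox2 and Nanog called lower. Fibroblast markers summed to 5.24 and 3.58 CPM in degron libraries, against 11.3 and 13.0 CPM in untreated libraries, with Fbln2 and Thy1 called lower and Postn, Dcn and Lum at 0 in all libraries. Thy1 made up most of these sums (3.27 and 2.03 CPM, against 8.24 and 9.86 CPM). Col1a1 lay the other way (1.53 and 1.19 CPM, against 0.947 and 0.867 CPM) and was not called. The primitive endoderm markers were at 16.3 and 16.4 CPM in degron libraries, against 10.7 and 10.8 CPM in untreated libraries, and Gata4 was called higher. Gata4 made up most of these sums (9.27 and 10.4 CPM, against 6.15 and 6.94 CPM), and DESeq2 did not call it (adjusted p = 0.176). Neural markers summed to 131.9 and 130.1 CPM in degron libraries, against 163 and 163 CPM in untreated libraries, with Nes and Tubb3 called lower and Neurog2 at 0. Nes and Tubb3 made up most of these sums, and Sox1 (9.05 and 7.52 CPM, against 6.44 and 6.94 CPM) lay the other way and was not called. Trophoblast markers summed to 86.5 and 85.3 CPM in degron libraries, against 88.6 and 81.1 CPM in untreated libraries. Nearly all of this was Tfap2c (80.8 and 80.6 CPM, against 83.1 and 76.2 CPM). The fibroblast, primitive endoderm, neural and trophoblast sums thus rest on few genes and do not show that such cells were present. In bulk RNA, fewer cells of a type and less RNA per cell cannot be told apart, and the part of these shifts in the results below was not tested.

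Of the 37 genes, 8 were higher in degron libraries (Epop, Bmi1, Pcgf2, Asxl2, Rybp, Pcgf6, Phc3 and Phc1) and 6 were lower (Rbbp7, Ezh2, Asxl1, Rbbp4, Kdm2b and Bcorl1) by edgeR's quasi-likelihood F test at an adjusted p below 0.05. Without degron_24h replicate 2 the number lower was smaller, as was that over all tested genes. The calls with all libraries were 21.6% higher and 16.2% lower, beside 22.2% of all tested genes higher and 21.6% lower, so the share of these genes that was called lay near the share in the rest of the transcriptome. Both degron libraries lay above both untreated libraries for 16 of the 37 genes and below for 10, with overlap for 11. Among all tested genes these patterns held for 36.3% and 34.4%. DESeq2 called 6 of them higher and 4 lower, beside 11.1% and 11.4% of the genes to which it gave an adjusted p. The median log2 fold change of the 37 genes was 0.05, and that of all tested genes was 0.01. Their median absolute log2 fold change was 0.19, and that of all tested genes was 0.24.

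**Figure D1:**
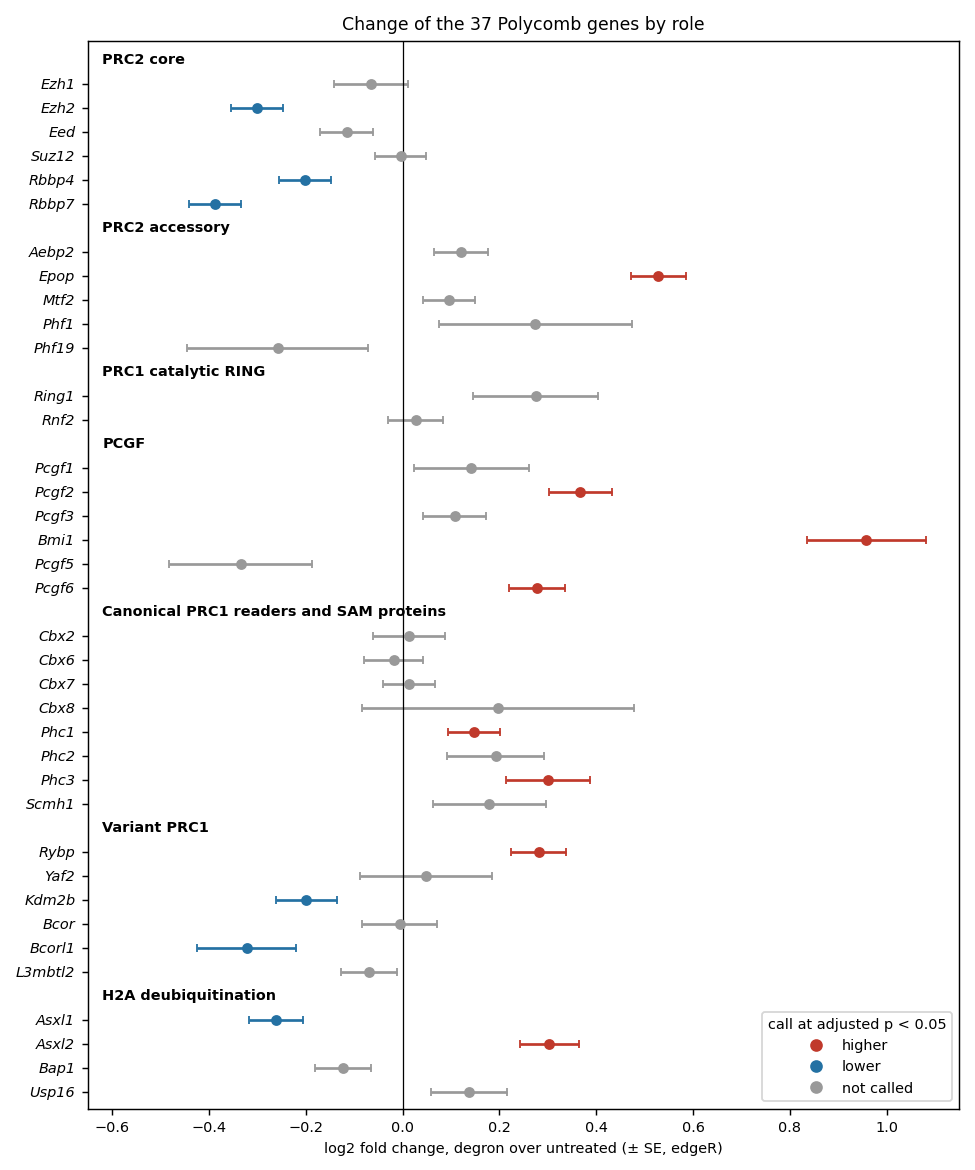
Log2 fold change of each of the 37 genes, degron over untreated, with the edgeR standard error as the bar, arranged by role and coloured by call (2 libraries per group). The 3 called PRC2 core genes lie left of 0 and the 3 called PCGF genes lie right of it, with Bmi1 farthest out at 0.96. Each of these groups has 6 genes, and of all tested genes 21.6% were called lower and 22.2% higher.

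The PRC2 core was the role group in which every called gene was lower. Of its 6 genes, 3 fell (50% lower and 0% higher, beside 21.6% and 22.2% of all tested genes) and the other 3 were not called. No test was run on this share of so few genes. The median log2 fold change of the 6 was -0.16. Their summed level was 1541 and 1526 CPM in degron libraries, against 1748 and 1771 CPM in untreated libraries. Most of that difference was Rbbp4 (means of 478 CPM in degron and 550 CPM in untreated libraries) and Rbbp7 (307 and 401 CPM). Their proteins also belong to other complexes. Ezh2, the main H3K27 methyltransferase of dividing cells, had 1710 and 1495 counts (187 and 179 CPM) in degron libraries, against 2359 and 2090 counts (223 and 227 CPM) in untreated libraries. Both degron libraries lay below both untreated libraries, and Ezh2 fell by 18.8% (log2 fold change -0.30 ± 0.05, SE; edgeR adjusted p = 3.16e-06). Its paralog Ezh1, the second methyltransferase of the complex, had a log2 fold change of -0.07 and was not called.

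Suz12, the scaffold on which the complex assembles, had 3144 and 2848 counts (343 and 340.1 CPM) in degron libraries, against 3626 and 3153 counts (343 and 342 CPM) in untreated libraries. These 4 CPM values overlapped, and the log2 fold change was 0.00 in size (± 0.05, SE; edgeR adjusted p = 0.958). Eed, which binds H3K27me3 and stimulates the methyltransferase, had 1550 and 1497 counts (169 and 179 CPM) in degron libraries, against 1906 and 1814 counts (180.5 and 197 CPM) in untreated libraries. Its groups did not overlap, but the gap of 179 to 180.5 CPM was narrow, and the log2 fold change of -0.12 ± 0.06 (SE) did not pass the test (edgeR adjusted p = 0.0835). Without untreated replicate 1 the edgeR adjusted p for Eed was 0.00727.

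Both genes for the histone-binding WD40 subunits fell. RBBP4 and RBBP7 also belong to the NuRD and SIN3 deacetylase complexes and to chromatin assembly factors, so their mRNA does not report on PRC2 alone. Rbbp7 had 2836 and 2544 counts (309 and 304 CPM) in degron libraries, against 4249 and 3692 counts (402 and 400.2 CPM) in untreated libraries. The groups were far apart and each pair was tight, and Rbbp7 fell by 23.6% (log2 fold change -0.39 ± 0.05, SE; edgeR adjusted p = 5.5e-09). Rbbp4 had 4413 and 3974 counts (481 and 475 CPM) in degron libraries, against 5731 and 5138 counts (543 and 557 CPM) in untreated libraries. It fell by 13.0% without overlap (log2 fold change -0.20 ± 0.05, SE; edgeR adjusted p = 0.00155), and without degron_24h replicate 2 the edgeR adjusted p was 0.0731.

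Among the PRC2 accessory genes, 1 of 5 rose (20%, beside 22.2% of all tested genes) and the other 4 were not called. The median log2 fold change of the 5 was 0.12 (0.047 with a trend on gene length removed). Epop, which joins PRC2 to Elongin BC and is abundant in embryonic stem cells, had 3086 and 2854 counts (337 and 341 CPM) in degron libraries, against 2293 and 2337 counts (217 and 253 CPM) in untreated libraries. Epop rose 1.44-fold without overlap between the groups (log2 fold change 0.53 ± 0.06, SE; edgeR adjusted p = 1.15e-12), although the untreated libraries differed from each other more than the degron libraries did. Mtf2 and Phf19, with Phf1 the Polycomb-like proteins that bring PRC2 to DNA, had log2 fold changes of 0.10 and -0.26 and were not called. Phf1 (0.27) and Aebp2 (0.12), a zinc finger subunit of the other PRC2 form, were not called either. Phf1 and Phf19 had 59 to 88 counts per library, and Phf1 shares 1370 of its 3486 exonic bases with Cuta on the other strand, so its reads are uncertain.

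**Figure D2:**
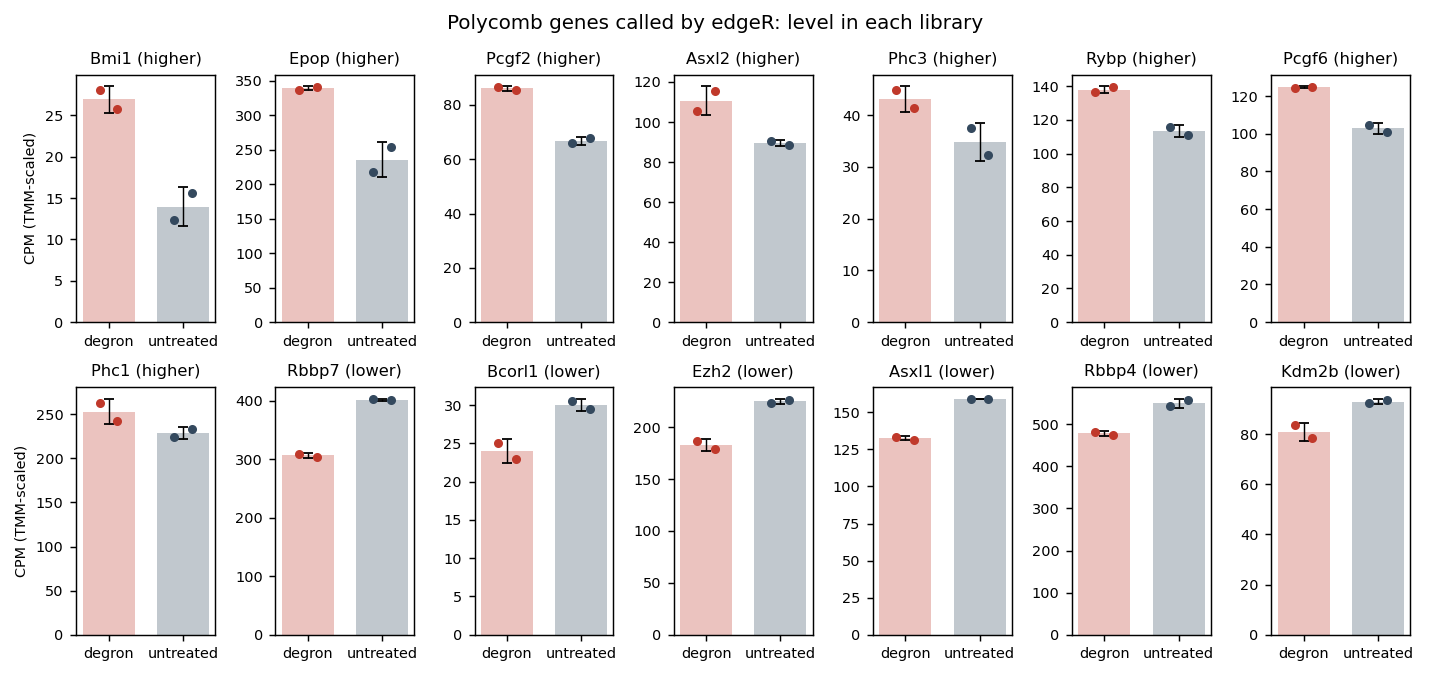
Level of each called gene in each library in TMM-scaled CPM, with degron on the left and untreated on the right of each panel. Points are the 2 libraries, bars their mean and error bars the SD. For all 14 genes both degron points lie on one side of both untreated points, with the largest ratio between group means for Bmi1 (28.0 and 25.8 CPM, against 12.3 and 15.6 CPM). The genes were chosen by the test on these same libraries, which favours such a separation. Of all tested genes, 36.3% lay above and 34.4% below in this way.

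Neither gene for the PRC1 ubiquitin ligases was called. Rnf2, which encodes RING1B, the main ligase of embryonic stem cells, had 1201 and 1058 counts (131 and 126 CPM) in degron libraries, against 1332 and 1168 counts (126 and 127 CPM) in untreated libraries. The groups overlapped, at 0.03 ± 0.06 on the log2 scale (SE; edgeR adjusted p = 0.73). Ring1, which encodes its paralog RING1A, had 167 and 169 counts (18.2 and 20.2 CPM) in degron libraries, against 185 and 129 counts (17.5 and 14.0 CPM) in untreated libraries. The untreated values were farther apart than the gap between groups, and the log2 fold change of 0.27 ± 0.13 (SE) did not pass the test (edgeR adjusted p = 0.0766 and unadjusted p = 0.0365). Without untreated replicate 1 the edgeR adjusted p for Ring1 was 0.0129.

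PCGF proteins pair with the RING ligase and set which form of PRC1 is built. Of the 6 Pcgf genes, 3 rose (50% higher and 0% lower, beside 22.2% and 21.6% of all tested genes) and the other 3 were not called. This share of so few genes was not tested either. The summed level of the 6 was 366 and 349 CPM in degron libraries, against 297 and 299.7 CPM in untreated libraries, with a median log2 fold change of 0.21. Bmi1 (Pcgf4), the PCGF of canonical PRC1 in many adult tissues, had 257 and 216 counts (28.0 and 25.8 CPM) in degron libraries, against 130 and 144 counts (12.3 and 15.6 CPM) in untreated libraries. Both degron libraries lay well above both untreated libraries, at 1.94-fold (log2 fold change 0.96 ± 0.12, SE; edgeR adjusted p = 5.41e-10).

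Pcgf2, which encodes MEL18, the canonical PCGF of embryonic stem cells, had 794 and 716 counts (86.6 and 85.5 CPM) in degron libraries, against 695 and 625 counts (65.8 and 67.7 CPM) in untreated libraries. It rose 1.29-fold without overlap (log2 fold change 0.37 ± 0.07, SE; edgeR adjusted p = 2.59e-06). Pcgf6, the PCGF of the variant complex with L3MBTL2 and MGA, had 1139 and 1047 counts (124 and 125 CPM) in degron libraries, against 1108 and 929 counts (105 and 101 CPM) in untreated libraries. It rose 1.21-fold, again without overlap (log2 fold change 0.28 ± 0.06, SE; edgeR adjusted p = 5.45e-05). Pcgf1 (0.14), Pcgf3 (0.11) and Pcgf5 (-0.33) were not called, and Pcgf5 had the lowest log2 fold change of the uncalled genes (edgeR adjusted p = 0.0583).

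Of the 8 genes for canonical PRC1 readers and SAM domain proteins, Phc1 and Phc3 rose (25%, beside 22.2% of all tested genes) and the other 6 were not called. The median log2 fold change of the 8 was 0.16 (0.0635 without degron_24h replicate 1). Cbx7, the main H3K27me3 reader of embryonic stem cells, had 2034 and 1911 counts (222 and 228 CPM) in degron libraries, against 2429 and 1990 counts (230.0 and 216 CPM) in untreated libraries. The 4 values overlapped, at 0.01 ± 0.05 on the log2 scale (SE; edgeR adjusted p = 0.869). Cbx2 (0.01), Cbx6 (-0.02) and Cbx8 (0.20), which encode readers with other tissue patterns, also overlapped between groups, and Cbx8 had only 26 to 35 counts per library.

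Phc1, whose SAM domain forms chains of complexes, had 2412 and 2032 counts (263 and 243 CPM) in degron libraries, against 2366 and 2151 counts (224 and 233 CPM) in untreated libraries. The rise was 1.11-fold with a narrow gap between groups (log2 fold change 0.15 ± 0.05, SE; edgeR adjusted p = 0.0214), and the call was lost without untreated replicate 1 (edgeR adjusted p = 0.137) or without degron_24h replicate 1 (0.413). Phc3 had 411 and 346 counts (44.8 and 41.3 CPM) in degron libraries, against 396 and 298 counts (37.5 and 32.3 CPM) in untreated libraries. It rose 1.23-fold without overlap (log2 fold change 0.30 ± 0.09, SE; edgeR adjusted p = 0.00317), and the call was lost without untreated replicate 2 (edgeR adjusted p = 0.079) or without degron_24h replicate 1 (0.0869). DESeq2 called neither Phc1 (adjusted p = 0.163) nor Phc3 (adjusted p = 0.148). Phc2 (0.19) and Scmh1 (0.18), a further SAM domain protein, were not called, although without degron_24h replicate 1 the edgeR adjusted p for Phc2 was 0.0129.

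Of the 6 genes particular to variant PRC1, Rybp rose and Kdm2b and Bcorl1 fell (16.7% and 33.3%, beside 22.2% and 21.6% of all tested genes). The median log2 fold change of the 6 was -0.04 (-0.10 without degron_24h replicate 1 and -0.0985 with a trend on gene length removed). Rybp, whose protein stimulates the ligase and binds ubiquitinated H2A, had 1251 and 1167 counts (136 and 139 CPM) in degron libraries, against 1223 and 1024 counts (116 and 111 CPM) in untreated libraries. It rose 1.22-fold without overlap (log2 fold change 0.28 ± 0.06, SE; edgeR adjusted p = 2.98e-05), and a processed pseudogene, Rybp-ps, could take or lend some reads. Its paralog Yaf2 had a log2 fold change of 0.05 and overlapped between groups.

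Kdm2b, whose zinc finger binds unmethylated CpG and brings a variant complex to CpG islands, had 766 and 656 counts (83.6 and 78.3 CPM) in degron libraries, against 975 and 865 counts (92.3 and 93.8 CPM) in untreated libraries. It fell by 12.9% without overlap (log2 fold change -0.20 ± 0.06, SE; edgeR adjusted p = 0.007). Bcorl1, a corepressor of the same complex, had 230 and 192 counts (25.1 and 22.9 CPM) in degron libraries, against 323 and 272 counts (30.6 and 29.5 CPM) in untreated libraries. It fell by 20% without overlap (log2 fold change -0.32 ± 0.10, SE; edgeR adjusted p = 0.0074). Both calls were lost without degron_24h replicate 2 (edgeR adjusted p = 0.169 for Kdm2b and 0.113 for Bcorl1) and in DESeq2 (adjusted p = 0.156 for Kdm2b and 0.181 for Bcorl1). Kdm2b shares 627 of its 10869 exonic bases with Rnf34 on the other strand. Bcor (-0.01), the paralog of Bcorl1, and L3mbtl2 (-0.07), a reader in the PCGF6 complex, overlapped between groups.

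Of the 4 genes of H2A deubiquitination, Asxl2 rose, Asxl1 fell and both deubiquitinase genes were not called, which is 25% in each direction beside 22.2% and 21.6% of all tested genes. BAP1 is the deubiquitinase, ASXL1 and ASXL2 are alternative partners that it needs, and USP16 is a separate H2A deubiquitinase. Asxl1 had 1222 and 1102 counts (133 and 132 CPM) in degron libraries, against 1676 and 1466 counts (159 and 159 CPM) in untreated libraries. Each pair was tight and the groups did not overlap, and Asxl1 fell by 16.6% (log2 fold change -0.26 ± 0.06, SE; edgeR adjusted p = 6.76e-05). Asxl2 had 967 and 969 counts (105 and 116 CPM) in degron libraries, against 957 and 816 counts (90.6 and 88.5 CPM) in untreated libraries. It rose 1.23-fold without overlap (log2 fold change 0.30 ± 0.06, SE; edgeR adjusted p = 2.82e-05). Bap1 (-0.12) and Usp16 (0.14) were not called, and without untreated replicate 2 the edgeR adjusted p for Bap1 was 0.0347.

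The make-up of each paralog family was given by the share of each member in the family's counts per exonic kilobase. This allows a rough comparison of levels of different genes, which depends on the length used. With the longest transcript as length, Rbbp7 held 57.1% of its pair on average in degron libraries. Pcgf2 and Pcgf6 then held 28.5% and 36.2% of theirs. No test was run on these shares, since an exact permutation test of 2 libraries against 2 cannot give a two-sided p below 0.333. Asxl2 made up 27% and 29.1% of the ASXL pair in degron libraries, against 21.1% and 20.6% in untreated libraries. Bmi1 made up 8.86% and 8.39% of the PCGF family in degron libraries, against 4.89% and 6.10% in untreated libraries. These shares did not overlap between groups, and Bmi1 stayed a minor member of its family beside Pcgf2 and Pcgf6, which held 31.1% and 31.6% on average in degron libraries.

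Ezh2 made up 80.3% and 79.9% of the EZH pair in degron libraries, against 81.6% and 83.7% in untreated libraries. Rbbp7 made up 65.9% and 65.8% of the RBBP pair in degron libraries, against 69.0% and 68.4% in untreated libraries. Bcorl1 made up 32.0% and 33.6% of the BCOR pair in degron libraries, against 37.6% and 37.8% in untreated libraries. The main member stayed the main member in these families, as did Rybp (78.5% on average in degron libraries and 75.6% in untreated libraries) and Rnf2 (84.0% and 86.3%, in the same order). The CBX family kept its make-up within the spread of the libraries, with Cbx7 at 58.7% and 61.5% in degron libraries, against 60.0% and 59.9% in untreated libraries.

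**Figure D3:**
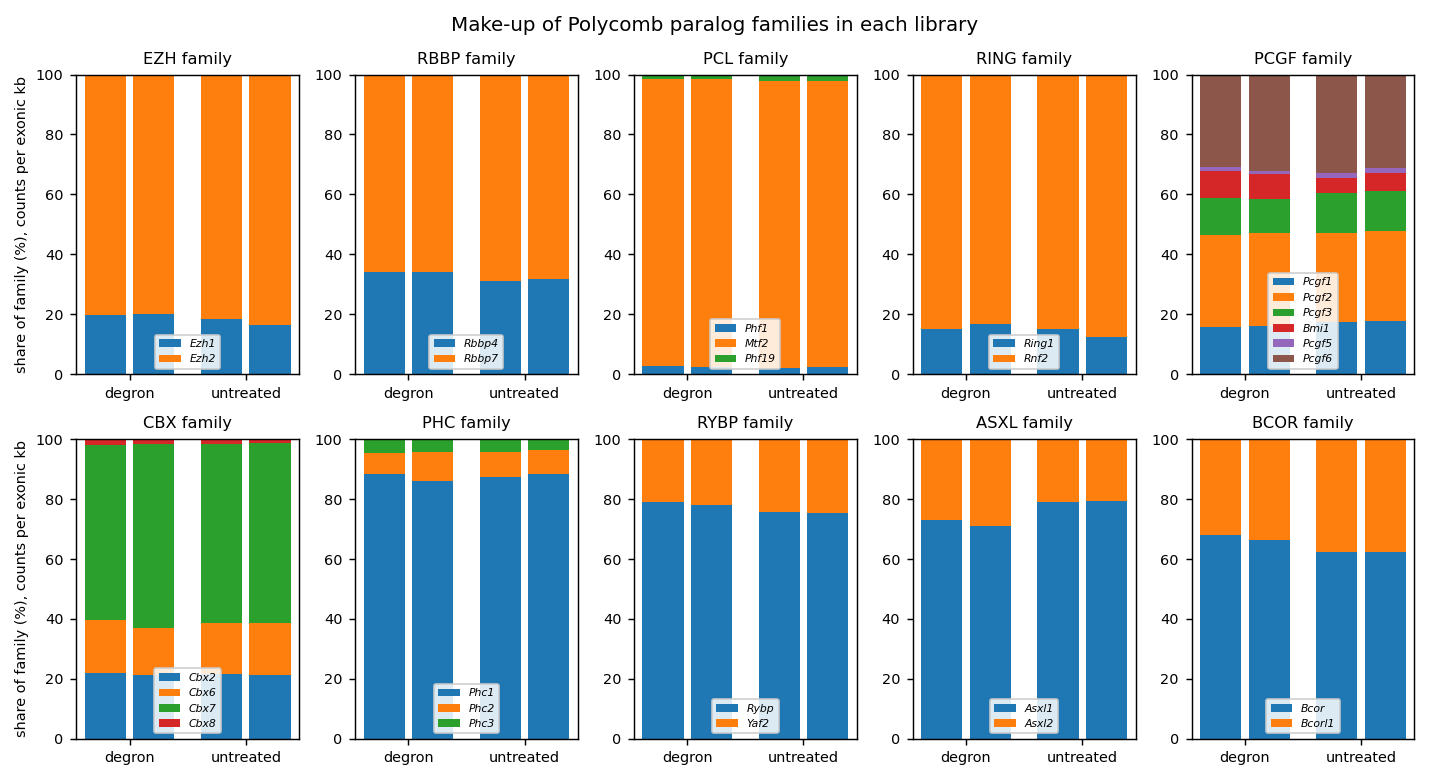
Share of each paralog in its family's counts per exonic kilobase, in percent, with the 2 degron libraries left of the 2 untreated libraries in each panel. Asxl2 takes a larger share of the ASXL pair in both degron libraries (27% and 29.1%, against 21.1% and 20.6%), while the CBX panel looks alike in all 4 libraries.

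Per exonic kilobase, the genes spanned a 165-fold range in degron libraries, and the order of genes here holds for that length alone. Epop stood highest at a mean of 146 CPM per kilobase in degron libraries, against 102 in untreated libraries. Rbbp7, at 105 in degron libraries and 138 in untreated libraries, was the highest in the untreated group. Mtf2 (82.8 and 77.5 CPM per kilobase, degron and untreated) and Suz12 (69.1 and 69.3) followed. Pcgf5 was lowest in degron libraries at 0.886 CPM per kilobase, against 1.12 in untreated libraries, and Cbx8, at 0.942 in degron libraries and 0.821 in untreated libraries, was lowest in the untreated group. The called changes were small against this range, the largest of the 14 being the 1.94-fold of Bmi1.

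**Figure D4:**
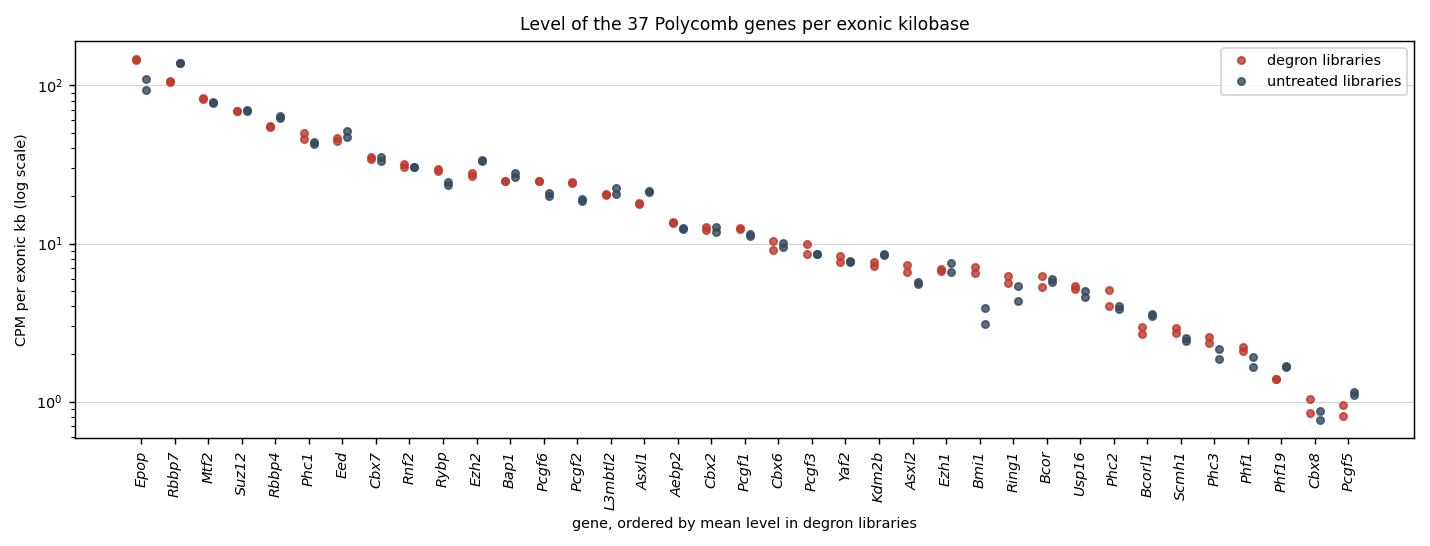
Level of each of the 37 genes in CPM per exonic kilobase on a log axis, ordered by the mean of the degron libraries, with degron points left of untreated points. Epop and Rbbp7 trade the first place between the groups (146 and 105 in degron, against 102 and 138 in untreated), and Bmi1 shows the widest gap.

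Epop and Pcgf2, which both rose, lie 59120 bases apart on chromosome 11 (mm10, minus strand, 97627389 to 97629702 for Epop and 97688823 to 97700497 for Pcgf2). No tested gene between them was called higher. Mllt6 had a log2 fold change of 0.00 in size. Gm11613 had one of 0.40 ± 0.42 (SE), too uncertain to give a direction, and neither gene was called. Cisd3, which ends next to Pcgf2 on the plus strand, fell (log2 fold change -0.74 ± 0.08, SE; edgeR adjusted p = 1.89e-12). The neighbours Cbx6 and Cbx7 on chromosome 15 and Cbx2 and Cbx8 on chromosome 11 were all uncalled.

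RefSeq promoter windows (GRCm38.p6, 250 bases before to 50 after the start of transcription) were matched by symbol for 32 of the 37 genes, in 44 windows. They held a median of 23 CG dinucleotides and 65.0% G and C, beside 7 and 52.7% over all 32851 windows, and 35 of the 44 (79.5%) held 15 or more CG dinucleotides, beside 34.6% of all windows. The E2F motif TTTNNCGC was found on either strand in the windows of Asxl1, Ezh2, Phf19 and Suz12 (9.09% of the 44 windows, beside 5.17% of all). The NRF1 motif was found on either strand for Cbx7, Ezh1, Ezh2, Pcgf3, Pcgf6, Phc3 and Rbbp7 (15.9%, beside 4.6% of all). Genes with an NRF1 match included ones that rose, ones that fell and ones not called. Of those with an E2F match, Asxl1 and Ezh2 fell and Phf19 and Suz12 were not called. The shares over all windows are not matched for CG content, which was higher in the windows of the Polycomb genes. The ETS motif CCGGAAGT was found for Asxl2 and Usp16 (4.55%, beside 3.89% of all) and the hypoxia response element TACGTG for Asxl2 and Cbx8 (4.55%, beside 3.23% of all). The C/EBP-ATF response element TGATGNAA was found in 0 of the 44 windows, beside 3.97% of all. No pair of these motifs overlapped in the sequences printed here.

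The 250 bases before the start are shown for the 6 called genes with a match there, 3 that fell (Ezh2, Rbbp7 and Asxl1) and 3 that rose (Asxl2, Pcgf6 and Phc3), read 5′ to 3′ on the strand of the gene with the matched letters in capitals. The capitals mark NRF1 in Ezh2 (chr6:47595031-47595280, minus strand, position -165 from the start), in Rbbp7 (chrX:162760122-162760371, plus strand, -151), in Pcgf6 (chr19:47050907-47051156, minus strand, -16) and in Phc3 (chr3:30969416-30969665, minus strand, -10, where both strands match). They mark E2F in Asxl1 (chr2:153345580-153345829, plus strand, -173), and ETS (-102) and the hypoxia response element (-246) in Asxl2 (chr12:3426607-3426856, plus strand). The E2F match of Ezh2 and a further NRF1 match of Rbbp7 lie after the start and are not shown.
Ezh2: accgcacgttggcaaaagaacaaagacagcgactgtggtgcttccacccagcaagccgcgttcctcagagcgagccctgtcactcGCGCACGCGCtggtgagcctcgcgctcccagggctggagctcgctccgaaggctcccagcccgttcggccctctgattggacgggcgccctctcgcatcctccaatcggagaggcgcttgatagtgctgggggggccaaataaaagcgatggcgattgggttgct
Rbbp7: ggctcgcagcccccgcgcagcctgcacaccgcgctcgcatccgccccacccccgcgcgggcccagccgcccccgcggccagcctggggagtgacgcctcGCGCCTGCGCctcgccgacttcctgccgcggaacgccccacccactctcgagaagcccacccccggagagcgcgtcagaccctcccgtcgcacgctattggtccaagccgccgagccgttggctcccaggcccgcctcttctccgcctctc
Asxl1: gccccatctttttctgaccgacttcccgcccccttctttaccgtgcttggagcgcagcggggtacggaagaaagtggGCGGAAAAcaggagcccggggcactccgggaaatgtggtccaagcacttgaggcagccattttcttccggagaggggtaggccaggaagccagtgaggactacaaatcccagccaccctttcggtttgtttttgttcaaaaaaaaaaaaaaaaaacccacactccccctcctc
Asxl2: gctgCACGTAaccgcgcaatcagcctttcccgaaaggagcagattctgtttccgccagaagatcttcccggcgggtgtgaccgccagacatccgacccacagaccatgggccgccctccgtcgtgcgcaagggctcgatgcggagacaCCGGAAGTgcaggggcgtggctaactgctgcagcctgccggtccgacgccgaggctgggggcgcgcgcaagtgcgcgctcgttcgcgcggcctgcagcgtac
Pcgf6: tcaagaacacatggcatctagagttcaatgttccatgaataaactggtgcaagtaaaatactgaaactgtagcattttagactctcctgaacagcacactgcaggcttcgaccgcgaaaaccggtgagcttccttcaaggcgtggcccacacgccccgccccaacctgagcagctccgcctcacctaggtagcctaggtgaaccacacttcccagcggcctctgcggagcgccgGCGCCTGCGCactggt
Phc3: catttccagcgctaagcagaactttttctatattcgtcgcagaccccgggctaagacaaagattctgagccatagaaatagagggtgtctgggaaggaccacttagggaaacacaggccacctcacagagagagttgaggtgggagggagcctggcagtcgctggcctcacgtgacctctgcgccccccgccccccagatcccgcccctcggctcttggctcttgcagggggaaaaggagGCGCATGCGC
The sequences shown held 23 (Ezh2), 34 (Rbbp7) and 11 (Asxl1) CG dinucleotides for the genes that fell. For the genes that rose they held 31 (Asxl2), 14 (Pcgf6) and 12 (Phc3), so the counts overlapped between the directions.

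A further list held 29 genes for proteins that work with Polycomb or oppose it, of which 28 were tested. Of these 11 rose and 7 fell (39.3% and 25.0%), beside 22.2% and 21.6% of all tested genes. DESeq2 called 6 in each direction, beside 11.1% higher and 11.4% lower of the genes to which it gave an adjusted p. Kdm6b, an H3K27 demethylase and so an opponent of PRC2, had 191 and 189.9 CPM in degron libraries, against 100.5 and 95.9 CPM in untreated libraries. It rose 1.94-fold without overlap (log2 fold change 0.95 ± 0.06, SE; edgeR adjusted p = 1.7e-24). Skp1a (-0.51, adjusted p = 1.71e-12 in edgeR) and Usp7 (-0.38, adjusted p = 1.39e-08 in edgeR), both found in the KDM2B complex, fell, as did Cbx3 (-0.38), a heterochromatin protein of the PCGF6 complex that has several annotated pseudogenes. Fbrs (0.51) and Csnk2b (0.41), partners of PCGF3 and PCGF5 complexes, rose. The list thus moved in both directions, with a median log2 fold change of 0.06.

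Developmental genes that carry H3K27me3 in embryonic stem cells were mostly at low levels in both groups. Of 70 such genes, 31 passed the low-count filter, 39 did not and 4 of these were at 0 in all libraries. Of the 31, 7 rose and 2 fell (22.6% and 6.45%), beside 22.2% and 21.6% of all tested genes, and a gene near the filter that passes through its higher group is more likely to differ. Without untreated replicate 1 or without degron_24h replicate 2 the number that rose was smaller, as was that over all tested genes. DESeq2 called 2 higher and 1 lower, beside 11.1% and 11.4% of the genes to which it gave an adjusted p. With a floor of 1 CPM on each group mean, 5 rose, with 2888 of all genes. The 70 genes summed to 449 and 445 CPM in degron libraries, against 387 and 398 CPM in untreated libraries. Most of that difference was Tbx3, a pluripotency-associated factor at 214 and 211 CPM in degron libraries, against 163 and 167 CPM in untreated libraries (log2 fold change 0.37 ± 0.05, SE; edgeR adjusted p = 3.35e-08). Without Tbx3 the sums were 234 and 234 CPM in degron libraries, against 224 and 231 CPM in untreated libraries.

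The 39 untested genes summed to 8.18 and 9.43 CPM in degron libraries, against 8.71 and 6.40 CPM in untreated libraries, and overlapped. The 22 Hox genes of the list summed to 47.6 and 44.2 CPM in degron libraries, against 33.8 and 35.2 CPM in untreated libraries. Of these, 10 were tested and 2, Hoxc13 and Hoxd9, were called higher (20%, beside 22.2% of all tested genes). DESeq2 called 0 of them, beside 11.1% higher and 11.4% lower of the genes to which it gave an adjusted p. Hoxc13 (0.47) made up a large part of the sums at 20.3 and 16.6 CPM in degron libraries, against 12.6 and 14.3 CPM in untreated libraries. Foxd3 (0.62), a pluripotency and neural crest factor, rose as well. Isl1, a factor of heart and motor neuron progenitors, had 18 and 14 counts in degron libraries, against 2 and 4 in untreated libraries. It passed the low-count filter through its degron counts, so its call in edgeR (log2 fold change 2.54) is given as a description. DESeq2 gave it no adjusted p. Gata3 (13 and 17 counts in degron libraries, against 8 and 6 in untreated libraries) and Hoxd9 (18 and 19, against 11 and 10) passed the filter in the same way. Their calls are descriptions too. Cdkn2a (-0.44), the gene for the cell cycle inhibitors INK4A and ARF and a classic target of BMI1, fell, and so did Olig1 (-0.57), a glial factor. DESeq2 did not call Hoxc13 (adjusted p = 0.15) or Olig1 (adjusted p = 0.052). Cdkn2a had 353 and 348 counts (38.5 and 41.6 CPM) in degron libraries, against 556 and 520 counts (52.6 and 56.4 CPM) in untreated libraries, with no overlap (edgeR adjusted p = 2.66e-06). Some of these genes, such as Gata4, Sox1 and Sox17, are also on the marker lists of other cell types given above, whose part in these sums was not tested.

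**Figure D5:**
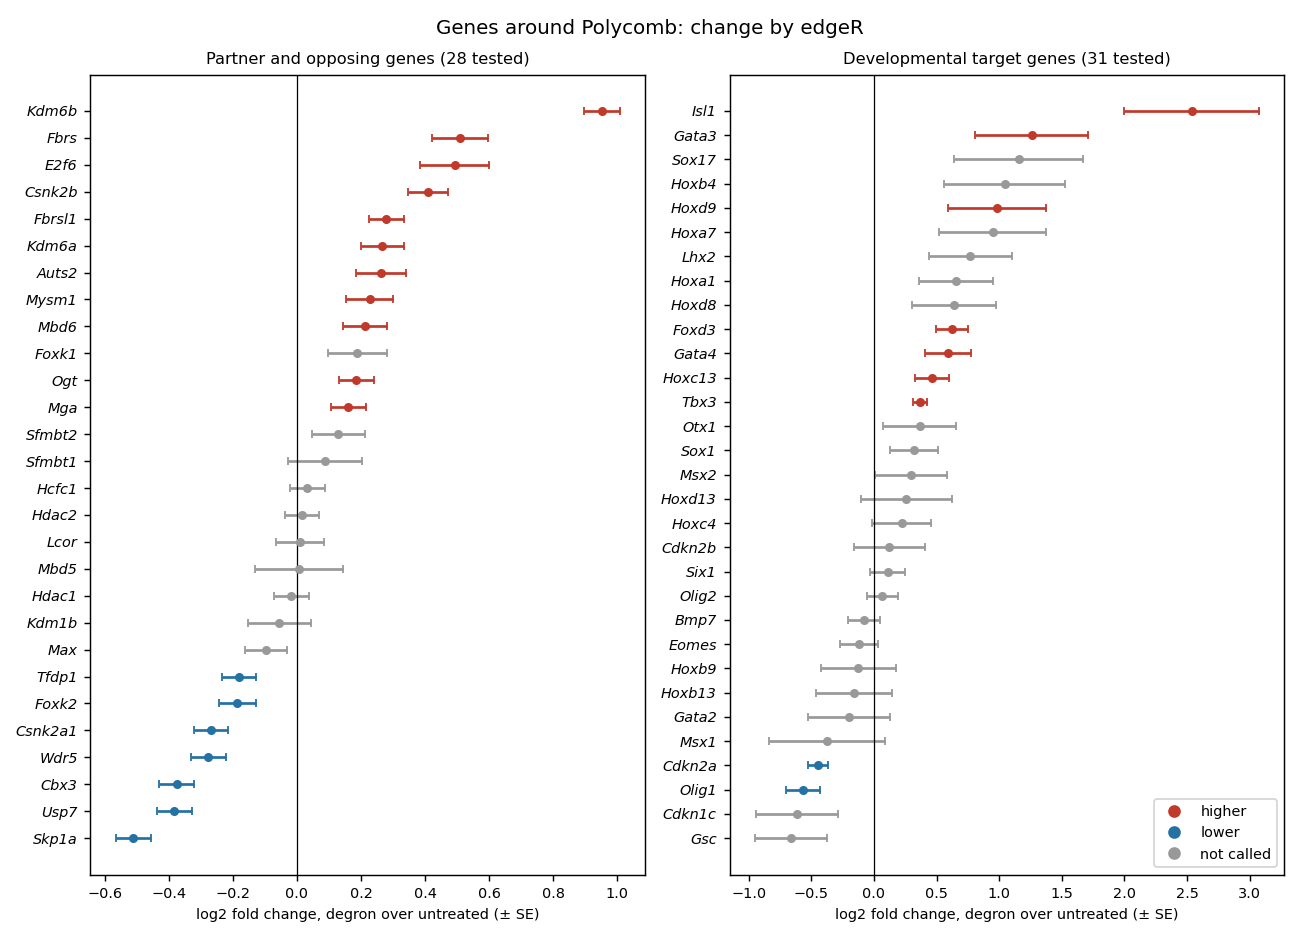
Log2 fold change of the tested partner and opposing genes (left) and developmental target genes (right), degron over untreated, with the edgeR standard error as the bar and the call as colour. Kdm6b lies farthest right among the partners at 0.95, and Isl1, the point at 2.54 with a wide bar, rests on 2 and 4 counts in untreated libraries.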

How the data were processed

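RNA-seq was analysed in 4 libraries, 2 degron_24h and 2 untreated, grouped by GEO's labels. The deposited table holds unnormalized read counts for each gene. Per the labels and the study's methods, the authors trimmed reads with cutadapt 2.6, mapped them to mm10 with STAR 2.7.6a, removed PCR duplicates, kept primary alignments and counted with featureCounts 1.6.3. The labels name poly(A) libraries and the study total RNA-seq, and for featureCounts the strand setting is not given in the sources used here. Genes whose exons overlap another gene on the other strand are therefore uncertain. Among the called genes these are Ezh2, Rbbp4, Rbbp7, Kdm2b, Asxl1 and Asxl2. Rbbp4 shares 782 of its 8744 exonic bases with Sync and 796 with Gm26722. The uncalled Usp16 shares 192 of its 9454 with Cct8, which had 27035 counts over the 4 libraries, beside 1779 for Usp16. Abundant genes may lose counts when duplicates are removed.

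Gene names, coordinates and exonic lengths came from GENCODE M21 (GRCm38), an older release than the authors counted on, which matched 55141 of 55401 IDs. The main test was the quasi-likelihood F test of edgeR 4.0.16 under R 4.3.3, with group as the only term, TMM scaling and the filterByExpr filter. Its p-values were adjusted by Benjamini-Hochberg over 13916 genes and called below 0.05. The SE is the size of the log2 fold change over the square root of F. The common biological coefficient of variation was 3.31%. Alternatives were DESeq2 1.42.0, limma-voom (limma 3.58.1), RLE scaling, library totals alone, no low-count filter, a floor of 1 CPM on each group mean, omission of each library, the replicate block, protein-coding genes alone, GC or length trends removed (splines with 5 degrees of freedom) and a minimum fold of 1.2 (glmTreat). The procedure was tested on simulated data with far fewer changed genes than were called here, so that test does not vouch for these calls. Promoter windows were searched on both strands for 5 motifs.

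The members, gene lists and motifs were chosen with earlier results of these data known. Called members and a fixed set of core genes were named with counts, and up to 6 called partner and target genes each in order of p. Cisd3, Mllt6 and Gm11613 were named for their position, outside this rule. Gata3 and Hoxd9 were named for the way they passed the low-count filter, also outside it.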

Additional observations from a re-analysis of the deposited data

How the results depend on the processing

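Of the 14 called genes, Epop, Bmi1 and Rbbp7 kept their call in all 15 alternatives, 6 (Ezh2, Pcgf2, Pcgf6, Rybp, Asxl1 and Asxl2) lost it only against a minimum fold of 1.2, and Rbbp4, Kdm2b, Bcorl1, Phc1 and Phc3 lost it in others. Of the 23 uncalled genes, 16 were called in no alternative and 7 in at least 1. No called direction was reversed. The minimum fold left 2 Polycomb genes higher (Epop and Bmi1) and 1 lower (Rbbp7), with 1354 and 1200 of all genes, 4 and 3 partner genes and 3 higher target genes. With each library left out in turn, 7 to 8 Polycomb genes were higher and 3 to 7 lower, the 3 without degron_24h replicate 2, and 4 to 5 target genes were higher, the 4 without untreated replicate 1 or without degron_24h replicate 2. Over all genes, fewer were called in each direction whichever library was left out. DESeq2 called 1445 of all genes higher and 1491 lower, 6 partner genes higher, and 2 target genes higher and 1 lower. With the length trend removed, 7 partner genes were higher. The cause of these differences was not tested.

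The median log2 fold change of the PRC2 core was -0.13 with library totals alone and -0.20 with the length trend removed, and with each library left out it ranged from -0.21 (without untreated replicate 1) to -0.14. That of the PRC2 accessory genes was 0.15 with library totals alone, 0.0918 with the GC trend removed and 0.047 with the length trend removed. Canonical PRC1 genes ranged from 0.0635 (without degron_24h replicate 1) to 0.15 with each library left out, and the H2A deubiquitination genes were at -0.0518 with the length trend removed. The gain in share of Bmi1 was 2.28 percentage points with the longest transcript as length, beside 3.13 with all exons. GC content was taken from the longest transcript. With the replicate block, 10 Polycomb genes were higher and 9 lower, as Aebp2, Mtf2, Eed, Pcgf5 and Bap1 gained a call. Of all genes, 3369 were then higher and 3276 lower. Same-numbered libraries shared only a number (correlation of deviations 0.0439 over 2 pairs).

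Depth limits the genes with few counts, as the SE of the log2 fold change was 0.28 for Cbx8 and 0.20 for Phf1, beside 0.05 for Suz12.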
